A study of Mus musculus with 6 samples.

Results

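Most of the genes described here encode the Golgi enzymes that start, build and cap mucin-type O-glycans and add sialic acid. They include the polypeptide GalNAc-transferases (Galnt), the core 1 synthase C1galt1 and its chaperone C1galt1c1, and the branching enzymes (Gcnt). The B3gnt genes and B4galt1 to B4galt6 were grouped by symbol as chain extension, although not every one of them encodes an enzyme that extends chains. The sialyltransferases are St3gal, St6gal, St6galnac and St8sia. The Glt8d genes were added, although neither is an established O-glycan enzyme. Members were found by gene symbol, and for each symbol the row was selected on its mean level over the 6 arrays, the highest being kept. This gave 62 genes on 65 rows, out of 19938 symbols on 21789 rows that carry a single gene symbol. A further row names B4galt2 together with a neighbouring gene and was not used. The families were proposed after Galnt5 and Glt8d2 had been seen to fall in an earlier look at the same arrays. The values of Galnt5 and Glt8d2 are therefore a description and support nothing, and no p-value is given for either. That both pass the call rule stated below is a restatement of how they were chosen.

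N2A is an established mouse neuroblastoma cell line. Cells were transiently transfected with 1.5 µg of a short hairpin RNA (shRNA) vector against the transcription factor gene Pou3f3, and the control cells received a vector without a target. RNA was taken 2.5 days later and hybridised to Affymetrix Mouse Gene ST arrays, 3 for Pou3f3 knockdown and 3 for control cells. Transfection was transient, so untransfected cells also contribute to each sample, and all samples are cultures of 1 line, so that a p-value covers only how far separate transfections of it vary. The study names several hairpins against Pou3f3, without saying which one these arrays rest on.

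Mucin-type O-glycosylation begins when a GalNAc-transferase places N-acetylgalactosamine on a serine or threonine of a protein passing through the Golgi. C1galt1 then adds galactose to make core 1, and Gcnt enzymes open a branch. Many B3gnt and B4galt enzymes lengthen chains with alternating sugars, and sialyltransferases close them. The St8sia enzymes add sialic acid to sialic acid, which in neural cells makes complex gangliosides and the polysialic acid of the adhesion molecule Ncam1. Several B4galt and sialyltransferase genes act on glycolipids or N-glycans as well.

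Values are log2 array values, and differences are Pou3f3 knockdown minus control with their standard error (SE). A row was called when its limma adjusted p over all 21789 rows was under 0.1 and its fold at least 1.3, which is 0.38 in log2 units. Pou3f3 itself stood at 8.20, 8.09 and 8.35 in knockdown replicates 1 to 3, against 8.37, 8.30 and 8.47 in the control replicates. The groups overlapped, and the difference of -0.16 ± 0.08 (SE) was not called (limma adjusted p = 0.303; exact permutation test, two-sided, p = 0.2, where 3 against 3 arrays cannot go below 0.1). On leaving out 1 array the difference of Pou3f3 lay between -0.23 (without knockdown replicate 3) and -0.10 (without knockdown replicate 2). Every direction below is that of the arrays labelled knockdown. Arrays with the same replicate number deviated together, but this pairing was clear only for replicate 1, whose arrays stand apart from the others. All 11 neuroblastoma and sympathetic markers measured lay above the 95th percentile of the olfactory receptor rows (7.36), a set with little expected expression, whereas 9 of 18 markers of fibroblasts, Schwann cells, astrocytes, macrophages, endothelium and epithelium did. The mean of the 11 markers ran from 11.76 to 11.80 on knockdown arrays and from 11.93 to 12.07 on control arrays. Of them 1, Dbh, was called lower (difference -1.17), where 0.684% of all rows were called lower. Hand2, Isl1, Tubb3 and Elavl4 lay higher, by 0.04, 0.06, 0.05 and 0.29, and the remaining markers of the 11 lay lower, so the mean does not stand for each gene. The mean of the 18 other markers ran from 7.47 to 7.56 on knockdown arrays and from 7.57 to 7.64 on control arrays, and none of them was called. The part of these cell markers in the results was not tested.

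Galnt5 and Glt8d2 lie on chromosomes 2 and 10. The promoter of Galnt5, from 250 bases before to 50 after its start site, is shown because Galnt5 had the lowest difference of all rows. It stands beside the promoter of Galnt3, another GalNAc-transferase gene of chromosome 2, whose level differed little. Sequences are from RefSeq, build GRCm38.p6, 5′ to 3′, with CpG dinucleotides in capitals. Galnt5 is at chr2:57997905-57998204 on the plus strand and Galnt3 at chr2:66124744-66125043 on the minus strand.
Galnt5: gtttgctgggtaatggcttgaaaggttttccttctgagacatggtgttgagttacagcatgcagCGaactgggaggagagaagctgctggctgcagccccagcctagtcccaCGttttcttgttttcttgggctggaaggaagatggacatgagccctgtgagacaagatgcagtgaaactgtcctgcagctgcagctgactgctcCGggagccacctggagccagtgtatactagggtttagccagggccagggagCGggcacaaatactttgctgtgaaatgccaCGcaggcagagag
Galnt3: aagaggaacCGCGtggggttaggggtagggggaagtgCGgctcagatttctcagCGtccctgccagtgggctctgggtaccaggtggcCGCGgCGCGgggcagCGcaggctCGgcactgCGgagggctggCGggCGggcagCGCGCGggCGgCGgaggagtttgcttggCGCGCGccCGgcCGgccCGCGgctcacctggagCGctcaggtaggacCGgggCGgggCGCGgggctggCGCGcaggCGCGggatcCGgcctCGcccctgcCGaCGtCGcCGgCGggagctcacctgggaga
The Galnt5 promoter held 5 CpG dinucleotides at 54.3% G and C, against 41 at 76.7% in that of Galnt3. Among promoters of GalNAc-transferase genes the counts ran from 0 for Galntl5 to the 41 of Galnt3, and neither gene was called. Galnt13, also on chromosome 2 and not called, held 28. The part of CpG number in the differences was not tested. The promoter table used holds 58 promoters of 44 members. The others are B3gnt6, B3gnt9, B4galt6, C1galt1c1, Galnt1, Galnt12, Galnt18, Galnt2, Galnt4, Gcnt3, Glt8d2, St3gal1, St3gal2, St6galnac1, St6galnac2, St6galnac5, St8sia3 and St8sia5, so neither the counts nor the motif search below cover Glt8d2. The median over the 58 was 20.5 CpG dinucleotides, and over 32851 promoters it was 7. Of the 58, 13.8% held as few as that of Galnt5 or fewer, and of the 32851, 43.6% did. The octamer ATGCAAAT, known to be bound by POU factors, was searched on both strands (ATTTGCAT on the other). It was present in 1 of the promoters of Galnt11 and in 1 of those of Gcnt2, neither of which was called, and in 1.74% of all promoters. The spaced motif TAATNNAT (ATNNATTA on the other strand) was found in none of the 58 and in 8.82% of all. Its fixed letters are all A or T, and the median share of G and C was 62% in the 58 against 52.7% in all promoters. Some of the 58 are also overlapping windows of the same gene. The part of base composition was not tested. A match is a description only, and its absence says that these letters are not in this window.

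Apart from the genes for which the set was proposed, no member rose or fell by the call rule. The 62 differences had a median of -0.08, against -0.03 for all 21789 rows, and 49 of the 62 (79.0%) lay below 0, against 57.5% of all rows. Without Galnt5 and Glt8d2 the median was -0.08 and 47 of 60 lay below 0. The median of the members was -0.03, against 0.02 for all rows, with each array centred on the median of all its rows, a scaling added after the data were seen. With cyclic loess it was -0.05, against -0.0022 for all rows. Called lower were 2 of 62, Galnt5 and Glt8d2, and called higher was none, where 0.684% of all rows were called lower and 1.3% higher. Nothing is read from the share of lower calls, since both genes were chosen for their fall. With the centring on all rows 82.4% of the calls over all rows were higher, against 65.6%, and the same 2 members were the calls. For 52 members the 95% confidence interval of the difference lay wholly within a 1.3-fold change in either direction. The exceptions beside Galnt5 and Glt8d2 were Galnt15, C1galt1, B3gnt3, B3gnt7, B4galt6, St3gal1, St3gal4 and St6galnac4, whose intervals reached past that fold. Those of C1galt1, B3gnt3 and St6galnac4 also held 0.

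**Figure D1:**
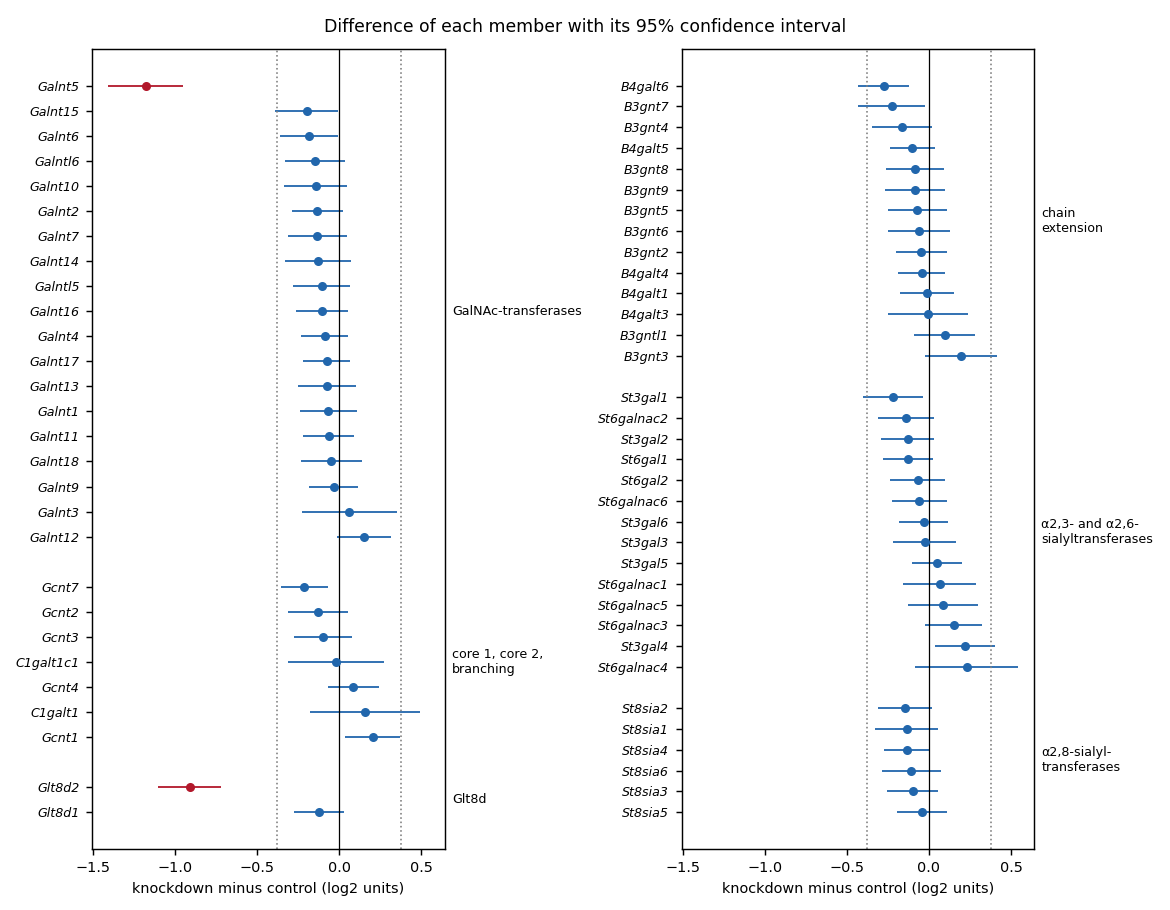
Difference between Pou3f3 knockdown and control (log2 units, horizontal axis) of the 62 members by role, with 95% confidence intervals; dotted lines mark a 1.3-fold change and red marks the members past both thresholds. Galnt5 at -1.18 and Glt8d2 at -0.91 stand apart, and the other 60 lie between -0.28 and 0.23.

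Galnt5, a polypeptide GalNAc-transferase, stood at 7.57, 7.46 and 7.65 on knockdown arrays 1 to 3, against 8.85, 8.85 and 8.52 on the control arrays. The groups were far apart, with means of 7.56 ± 0.10 in knockdown and 8.74 ± 0.19 in control cells (SD, n = 3 each). The difference was -1.18 ± 0.10 (SE), a level 55.8% lower, and by pair of arrays it was -1.28, -1.39 and -0.86. The third control array was the lowest of its group, and without it the difference was -1.29. Of the 21789 rows with 1 symbol, that of Galnt5 had the lowest difference and that of Glt8d2 the 9th lowest.

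The other 18 GalNAc-transferase genes had a median difference of -0.10 and none was called. Of them 16 lay below 0, where 57.5% of all rows did. Their differences ran from -0.20 for Galnt15 to 0.15 for Galnt12. Galnt15 stood at 8.54, 8.37 and 8.57 in knockdown cells, against 8.68, 8.59 and 8.81 in control cells. Its groups were apart by a narrow margin, and the difference of -0.20 ± 0.08 (SE) did not pass (limma adjusted p = 0.235). Galnt6, which acts in the same first step, stood at 7.15, 7.10 and 7.27 in knockdown against 7.35, 7.26 and 7.46 in control cells. These groups just overlapped, with a difference of -0.18 ± 0.08 (limma adjusted p = 0.239), at a level below the olfactory receptor percentile. Galnt12 was the only GalNAc-transferase gene that lay higher in all 3 pairs of arrays, at 8.98, 9.16 and 9.03 in knockdown against 8.85, 8.89 and 8.98 in control cells (difference 0.15 ± 0.07, limma adjusted p = 0.293). Its knockdown array 1 lay just under control array 3, so the groups overlapped.

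Galnt3 and Galnt13 mark the ends of the range of levels in this family. Galnt3, known for the O-glycosylation that protects the hormone Fgf23 from cleavage, stood at 12.29, 11.84 and 11.88 in knockdown against 12.13, 11.80 and 11.89 in control cells. Both first arrays were the high ones, and the difference of 0.06 ± 0.13 was smaller than the spread within each group. Galnt13, a GalNAc-transferase of neurons, stood at 5.24, 5.42 and 5.40 in knockdown against 5.54, 5.39 and 5.36 in control cells, with overlapping groups and a difference of -0.08 ± 0.08. A row's level depends on its probes as well as on its transcript, so levels do not order genes by amount. Of the 19 GalNAc-transferase rows, 11 lay above the olfactory receptor percentile, Galnt5 among them, and over all 62 members 41 did. Detection above background was not analysed here.

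Of the 7 genes of core 1, core 2 and branching, 4 lay below 0 and 3 above, and none was called. C1galt1, which makes core 1, stood at 12.00, 11.65 and 11.55 in knockdown against 11.88, 11.38 and 11.45 in control cells. It was higher in every pair of arrays, while the spread within each group was as large as the difference of 0.16 ± 0.15 (SE, limma adjusted p = 0.566). Gcnt1, which forms the core 2 branch, was the lowest row of this group, at 6.91, 6.85 and 6.95 in knockdown against 6.83, 6.63 and 6.65 in control cells. All knockdown arrays lay above all control arrays, by 0.20 ± 0.07 (limma adjusted p = 0.190), at a level below the olfactory receptor percentile. Gcnt7, a related gene, stood at 7.41, 7.38 and 7.44 in knockdown against 7.56, 7.62 and 7.68 in control cells. Its groups were apart in the opposite direction, by -0.21 ± 0.06 (limma adjusted p = 0.133).

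Among the 14 genes of chain extension, 12 lay below 0, where 57.5% of all rows did, and B4galt6 came closest to a call. B4galt6 encodes a lactosylceramide synthase, which makes the precursor of gangliosides. It had the highest row of this group, at 11.48, 11.58 and 11.53 in knockdown against 11.85, 11.86 and 11.71 in control cells. All knockdown arrays lay below all control arrays, and the difference of -0.28 ± 0.07 (SE), a level 17.4% lower, passed the adjusted p (limma, 0.0840) but not the fold. On leaving out any 1 array its adjusted p was between 0.134 and 0.281. B4galt5, the gene of a second lactosylceramide synthase, differed by -0.10 ± 0.06 with groups that were also apart. By adjusted p alone 3 members were lower and none higher, where 1.79% of all rows were lower and 2.66% higher. Of the 3, Galnt5 and Glt8d2 were chosen for their fall, which leaves B4galt6 as 1 of the 60 others.

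The B3gnt genes had differences from -0.23 to 0.20. B3gnt7, an enzyme of keratan sulphate chains, stood at 8.07, 7.96 and 8.29 in knockdown against 8.30, 8.41 and 8.30 in control cells, a difference of -0.23 ± 0.09 (SE, limma adjusted p = 0.213). The third knockdown array nearly reached the control values. B3gnt3, which extends core 1, stood at 9.47, 9.67 and 9.68 in knockdown against 9.35, 9.28 and 9.60 in control cells. Its groups overlapped, with a difference of 0.20 ± 0.10 (limma adjusted p = 0.298). B3gnt5, which starts the lacto-series glycolipids, had the lowest row of this group, at 5.61, 5.64 and 5.81 in knockdown against 5.65, 5.79 and 5.83 in control cells.

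The 14 α2,3- and α2,6-sialyltransferase genes were divided, 8 below and 6 above 0, with none called. St3gal1, which caps core 1, stood at 8.47, 8.19 and 8.37 in knockdown against 8.51, 8.59 and 8.59 in control cells. The groups did not overlap and the difference was -0.22 ± 0.08 (SE, limma adjusted p = 0.191), while the other row of this gene, at a mean of 7.29, differed by -0.05 ± 0.08. St3gal4, which caps N-acetyllactosamine chains, lay the other way, at 10.52, 10.43 and 10.48 in knockdown against 10.35, 10.10 and 10.33 in control cells. Every knockdown value exceeded every control value, by 0.22 ± 0.08 on average (limma adjusted p = 0.191). St6galnac4, which sialylates the GalNAc of capped core 1, stood at 10.25, 10.63 and 10.54 in knockdown against 9.93, 10.41 and 10.39 in control cells. Both first arrays were the low ones, each knockdown array exceeded its control of the same number, and the difference was 0.23 ± 0.14 (limma adjusted p = 0.381).

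St3gal3 had the highest row of this group and showed almost no difference, at 10.73, 10.91 and 10.93 in knockdown against 10.75, 10.91 and 10.99 in control cells. St6gal2 had the lowest, at 5.90, 5.78 and 5.67 in knockdown against 5.83, 5.89 and 5.83 in control cells, with overlapping groups. St6gal1, the main α2,6-sialyltransferase of N-glycans, differed by -0.13 ± 0.07 (SE).

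All 6 α2,8-sialyltransferase genes lay below 0, where 57.5% of all rows did, with differences between -0.15 and -0.04, and none was called. Of the 6, 3 lay above the olfactory receptor percentile, and St8sia4, St8sia5 and St8sia6 lay under it. St8sia2, a polysialic acid synthase, stood at 7.30, 7.33 and 7.49 in knockdown against 7.57, 7.51 and 7.48 in control cells, so that the groups overlapped at the third pair (difference -0.15 ± 0.07, SE, limma adjusted p = 0.293). St8sia4, the second polysialic acid synthase, stood at 5.98, 5.95 and 5.96 in knockdown against 6.11, 6.05 and 6.14 in control cells, a small separation on a dim row (-0.13 ± 0.06, limma adjusted p = 0.268). St8sia1, which makes the ganglioside GD3, stood at 7.34, 7.20 and 7.46 in knockdown against 7.57, 7.37 and 7.48 in control cells, and its groups overlapped. St8sia3 had the highest row of the 6, at 10.41, 10.42 and 10.30 in knockdown against 10.44, 10.55 and 10.44 in control cells (difference -0.10 ± 0.07, limma adjusted p = 0.433).

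Glt8d2 carries a family 8 glycosyltransferase domain. It stood at 7.94, 7.78 and 7.68 in knockdown against 8.81, 8.69 and 8.63 in control cells, which are means of 7.80 ± 0.13 in knockdown and 8.71 ± 0.09 in control cells (SD, n = 3 each). The difference was -0.91 ± 0.09 (SE), a level 46.8% lower, and the 3 pairs of arrays gave -0.87, -0.91 and -0.96. Its relative Glt8d1 stood at 10.47, 10.46 and 10.42 in knockdown against 10.62, 10.48 and 10.63 in control cells. These groups were apart by a small gap, and the difference of -0.12 ± 0.07 did not pass (limma adjusted p = 0.332).

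**Figure D2:**
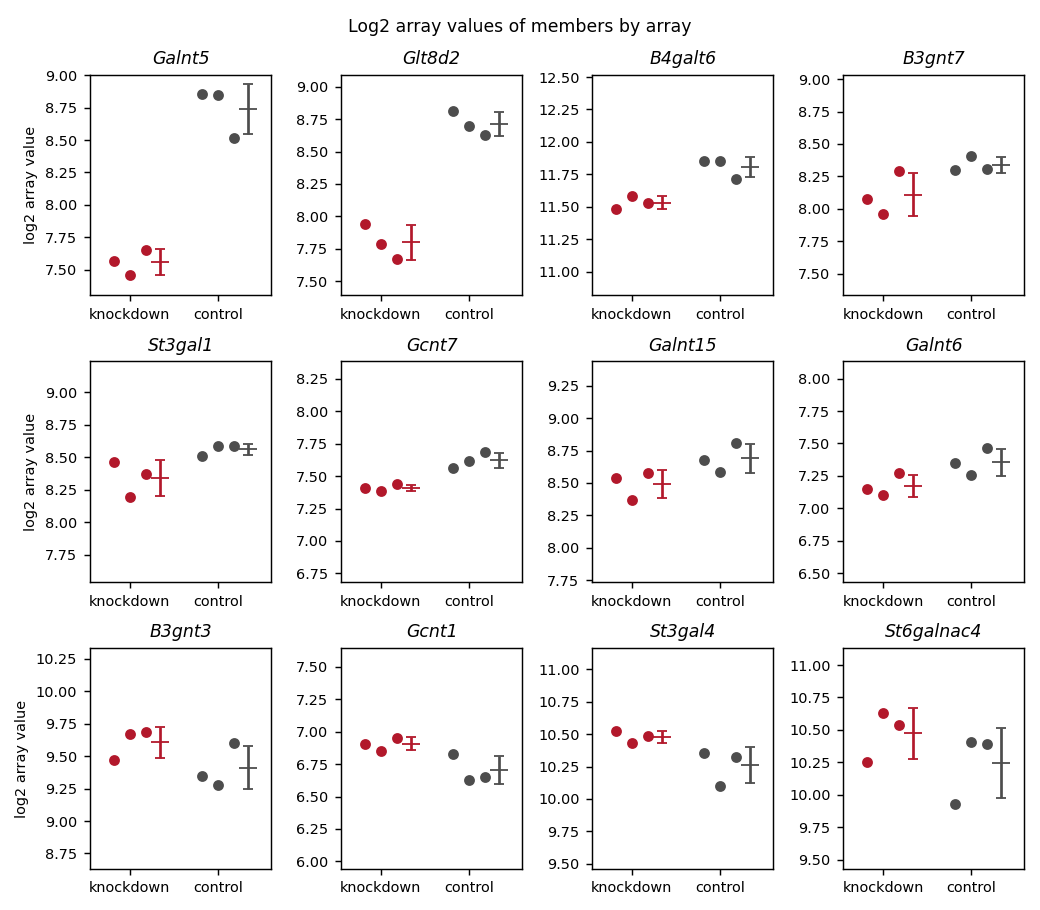
Log2 array values (vertical axes, each spanning the same range) of the 12 members with an adjusted p under 0.1 in the fit with the replicate block, in knockdown (red, left) and control (grey, right) cells; points are replicates 1 to 3 from left to right, and bars are means ± SD (n = 3). The groups of Galnt5 and Glt8d2 are far apart, whereas those of Galnt6, B3gnt3 and St6galnac4 overlap.

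Arrays of the same replicate number were treated as pairs, although the pairing was clear for number 1 only, and many small differences held within these pairs. In 30 members all 3 knockdown arrays lay below their control of the same number (48.4%, against 29.0% of all rows), and in 8 all lay above (12.9%, against 23.8%). With the replicate number as a block, a fit without the fold threshold that was added after the data were seen, 8 members were lower at an adjusted p under 0.1 (12.9%, against 10.7% of all rows) and 4 higher (6.45%, against 12.3%). Those lower were Galnt5, Glt8d2, B4galt6, Gcnt7, Galnt15, Galnt6, St3gal1 and B3gnt7, and those higher were St6galnac4, St3gal4, Gcnt1 and B3gnt3. The blocked limma adjusted p of the other 10 beside Galnt5 and Glt8d2 ran from 0.0210 for B4galt6 to 0.0964 for B3gnt3, and none of the 10 reached 1.3-fold. Groups did not overlap for 15 members with knockdown lower (24.2%, against 15.1% of all rows) and for 2, Gcnt1 and St3gal4, with knockdown higher (3.23%, against 10.9%). The counts of lower members include Galnt5 and Glt8d2, which were chosen for their fall. Of the 60 others, 28 lay lower in all 3 pairs, 6 were lower in the blocked fit and 13 had knockdown lower without overlap.

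Rows at low levels lay slightly below 0 as a whole, and those at higher levels slightly above. Among all rows the median difference was -0.09 at levels of 7.23 to 7.82 and 0.07 at 9.51 to 10.26. The 10 members in the lower of these classes had a median of -0.10 and the 5 in the higher one 0.09. In the class from 7.82 to 8.60 the 9 members had a median of -0.20 and all rows -0.08. These 9 include Galnt5 and Glt8d2, which were chosen for their fall, so nothing is read from this contrast. In the class from 10.97 to 11.82, where all rows had a median of 0.04, the 5 members, B4galt6 among them, had -0.10. In the class from 10.26 to 10.97 the 10 members had a median of -0.04 and all rows 0.06. In the highest class the 2 members had -0.04 and all rows 0.0055. The part of level in these differences was not tested.

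**Figure D3:**
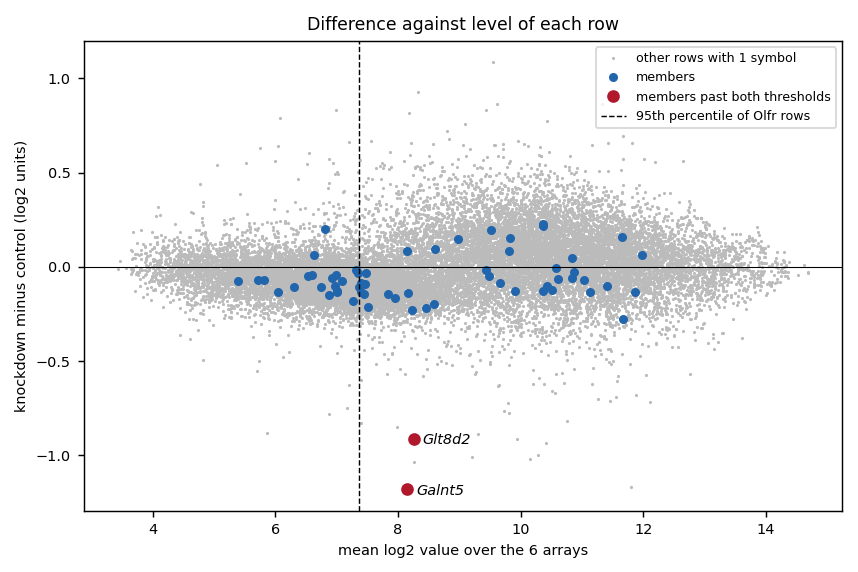
Difference between knockdown and control (log2 units, vertical axis) against the mean log2 value over the 6 arrays (horizontal axis) for the 62 members and all other rows with 1 symbol; the dashed line is the 95th percentile of the olfactory receptor rows, at 7.36. Galnt5 and Glt8d2 lie at mean levels of 8.15 and 8.26, and 41 members lie to the right of the line.

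Genes that work beside these enzymes gave 1 call among 82 measured, that of B3galnt1, where 0.684% of all rows were called lower and 1.3% higher, so the share is near that of all rows. This gene encodes the synthase of globoside, a neutral glycolipid, and it was listed with the genes of ganglioside synthesis and breakdown although its product is no ganglioside. It stood at 10.06, 10.04 and 10.09 in knockdown against 10.69, 10.69 and 10.68 in control cells. The groups were far apart with almost no spread within them, and B3galnt1 fell by 0.62 ± 0.06 (SE, limma adjusted p = 0.00387), to a level 35.0% lower. With a variance filter over all rows of the array, rows without a symbol included, it was not called (limma adjusted p = 0.168). None of the other 7 genes of its list was called by the same rule.

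The 16 measured genes of sialic acid and nucleotide sugar supply had a median of 0.07 and no call. Renbp, an epimerase of N-acetylglucosamine, differed most, at 10.52, 10.88 and 10.72 in knockdown against 9.93, 10.31 and 10.46 in control cells. The knockdown arrays all exceeded the control arrays, by 0.48 ± 0.14 (SE), with a limma adjusted p of 0.121, or 0.00534 with the replicate block, where it was called. Slc35a2, the UDP-galactose transporter, stood at 10.09, 10.25 and 10.21 in knockdown against 10.33, 10.55 and 10.66 in control cells (difference -0.33 ± 0.09, limma adjusted p = 0.112). The CMP-sialic acid transporter gene Slc35a1 differed by 0.27 ± 0.11 (limma adjusted p = 0.220), with overlapping groups. Of 7 sialidase and sialic acid acetylation genes none was called, the sialidase gene Neu4 having the largest difference, -0.26 ± 0.10 (limma adjusted p = 0.184).

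Among 21 carriers of O-glycans or polysialic acid, 17 lay below 0, where 57.5% of all rows did, and none was called. By adjusted p alone 4 were lower and none higher, where 1.79% of all rows were lower and 2.66% higher. Chgb, an O-glycosylated granin, stood at 13.52, 13.40 and 13.36 in knockdown against 13.90, 13.74 and 13.76 in control cells, and its difference of -0.38 ± 0.08 (SE, limma adjusted p = 0.0456) came just short of the fold. Ncam1, the main carrier of polysialic acid, stood at 12.98, 12.93 and 12.92 in knockdown against 13.25, 13.42 and 13.29 in control cells. Its groups were apart and the difference of -0.38 ± 0.07 (limma adjusted p = 0.0377) was likewise under the fold. Chga and Nrp2, another polysialic acid carrier, differed by -0.35 ± 0.08 and -0.26 ± 0.06 (limma adjusted p = 0.0628 and 0.0855).

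Of 12 genes of other protein O-glycosylation and 18 of N-glycan branching and fucosylation none was called. Lfng, which modifies O-fucose on Notch receptors, stood at 10.33, 10.58 and 10.58 in knockdown against 9.96, 10.15 and 10.26 in control cells, a difference of 0.37 ± 0.10 (SE, limma adjusted p = 0.0992) under the fold. Eogt, which puts N-acetylglucosamine on EGF-like domains, differed by -0.33 ± 0.08 (limma adjusted p = 0.0763). Fut10, a gene of the fucosyltransferase family, stood at 9.42, 9.40 and 9.48 in knockdown against 9.08, 9.02 and 9.25 in control cells (difference 0.32 ± 0.08, limma adjusted p = 0.0743). The groups of Lfng, Eogt and Fut10 did not overlap.

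**Figure D4:**
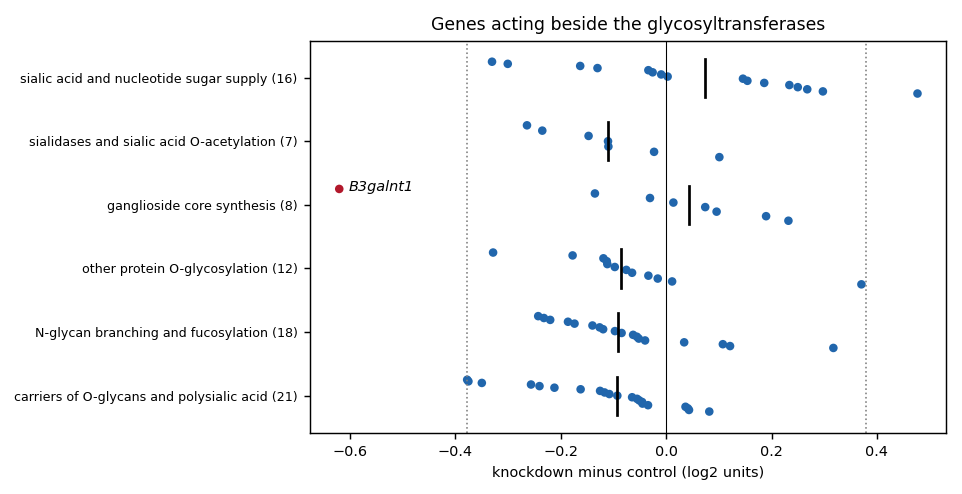
Difference between knockdown and control (log2 units, horizontal axis) of the measured genes of 6 lists that act beside the glycosyltransferases (number of genes in brackets); black bars are list medians, dotted lines mark a 1.3-fold change, and red marks the one call. B3galnt1 lies at -0.62, and the list medians run from -0.11 to 0.07.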

How the data were processed

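Per the labels, 6 arrays of N2A cells were hybridised, 3 of them from cells with a Pou3f3 knockdown construct. The deposited log2 values are those the authors obtained by RMA background correction, quantile normalisation and summary per gene; the submitters' processing notes give no version for RMA or limma. Quantile normalisation gives arrays nearly the same distribution, so a shift of most transcripts cannot be seen.

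Of 35556 rows, the 21789 with 1 platform gene symbol were fitted with lmFit and eBayes (limma 3.58.1, R 4.3.3, two-sided, no block), with Benjamini-Hochberg adjustment over all of them. The study's variance filter (0.5, read as a quantile) was an alternative, since members below it would go untested. Members, lists and tests were chosen with earlier results of these data known. Entrez identifiers of all 62 members were found in a RefSeq gene table (GRCm38.p6).

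The fit was tested on simulated data with a seeded set of the 21789 rows changed by known folds. Over 5 runs it found 36.4% of the rows changed 1.3-fold, 81.2% of those changed 1.5-fold and 95.2% of those changed 2-fold, and made 6.6 false calls a run. Rows and arrays were drawn independently, without the shared deviations of the real arrays described below. These rates therefore check the code and do not give the reliability of the real calls.

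Deviations of same-numbered arrays from their group means correlated over rows at 0.64, 0.31 and 0.29. As each was over 0.1, the numbers of the titles were taken to pair the arrays. The pairing is clear for number 1 only, since knockdown replicate 2 with control replicate 3 gave 0.22 and knockdown replicate 3 with control replicate 2 gave 0.25, and the other pairs of unlike number lay between -0.48 and -0.37.

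Values in every array are given for Galnt5 and Glt8d2, for the 3 uncalled members with the largest difference and for the highest and lowest row of each role, and for listed genes that were called or differed most. Slc35a2 and Ncam1 were added after their values were seen.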

Additional observations from a re-analysis of the deposited data

How the results depend on the processing

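The number of members called lower was 2 under each alternative that kept the fold threshold, with and without the replicate block and on leaving out each array, except 1. These 2, Galnt5 and Glt8d2, were chosen for their fall on the same arrays, so the return of their calls supports nothing. With the replicate block and the variance filter over all rows together, 23 members were tested and 0 were called, 0 of the GalNAc-transferases and 0 of the Glt8d genes, and no row of the array was called. Without the fold threshold 1 gene of chain extension was called lower, and with the block as well 8 members were lower and 4 higher.

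Of the other lists, supply had 1 call higher, Renbp, with the replicate block and with the variance filter on rows with a symbol. Ganglioside synthesis had 0 calls with the variance filter over all rows, with or without the block. Other O-glycosylation had 1 call higher, Lfng, with arrays centred on all rows, and 1 higher and 1 lower without the fold threshold, where N-glycan branching had 1 higher and the carriers 4 lower. With cyclic loess the carriers had 2, Chgb and Ncam1. On leaving out 1 array, calls ran from 0 to 1 lower and 0 to 1 higher for supply, 0 to 1 higher for other O-glycosylation and for N-glycan branching, and 0 to 2 lower for the carriers. Without control replicate 1, Slc35a2, Chga and Ncam1 were called, and likewise without control replicate 3, Fut10, and without knockdown replicate 1, Renbp, Gfpt1, Lfng, Chgb and Ncam1.

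Differences near 0 changed sign. That of Galnt3 ran from -0.0821 to 0.156 on leaving out 1 array, being -0.0086 without control replicate 2 and -0.0821 without knockdown replicate 1. That of St3gal3 was 0.0238 with centring on all rows, 0.0259 without control replicate 3 and 0.0366 without knockdown replicate 1, and ran from -0.0946 to 0.0366 on leaving out 1 array. The causes were not tested. Over all rows the 149 lower and 284 higher calls were 10 and 2 with the variance filter over all rows, 18 and 10 with all 35556 rows unfiltered, 83 and 78 without control replicate 2, 90 and 129 without control replicate 3, and 80 and 67 without knockdown replicate 2. The number of arrays, 3 a group, limits the precision.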

Other observations

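None of the measured genes next to Galnt5 or Glt8d2 was called. Within 4 annotated genes on either side of Galnt5 on chromosome 2, Gpd2 differed by -0.03 ± 0.07 (SE), Ermn by 0.01 ± 0.10 and Cytip by -0.29 ± 0.07, the last with a limma adjusted p of 0.0840 but under the fold. Around Glt8d2 on chromosome 10, Hcfc2 differed by -0.15 ± 0.16, Txnrd1 by 0.32 ± 0.07 (limma adjusted p = 0.0704) and Nfyb by 0.47 ± 0.27 (limma adjusted p = 0.363). Tdg, which lies directly beside Glt8d2, was not measured, and the part of position was not tested.

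Over the 6 arrays the rows most like Galnt5 by Pearson correlation were those of Vsig8 (0.998), Il17c (0.997), Tspan10 (0.997), Uggt1 (0.993) and Cacna2d4 (0.993). Their differences were -0.20, -0.21, -0.16, -0.12 and -0.28, all far smaller than that of Galnt5. With 6 arrays in 2 groups such values mostly repeat the split between the groups, and they are given as a description.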
